A study of Mus musculus with 2 samples.

Results

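Cell cycle entry genes of the cyclin D and Cdk4/6 pathway were followed through the lineages of the newborn mouse cerebellum. The set was chosen by symbol and held the D cyclins Ccnd1, Ccnd2 and Ccnd3, their kinases Cdk4 and Cdk6, the Cdk inhibitors Cdkn1a, Cdkn1b, Cdkn1c and Cdkn2c, and the antiproliferative gene Btg2, that is 10 of the 32285 genes counted. Each symbol matched 1 gene, and on mm10 (GENCODE vM21) these lie at chr7:144929931-144939925 (Ccnd1), chr6:127125162-127152193 (Ccnd2), chr17:47505051-47599691 (Ccnd3), chr10:127063534-127067920 (Cdk4), chr5:3341485-3531008 (Cdk6), chr17:29090976-29100727 (Cdkn1a), chr6:134920401-134925513 (Cdkn1b), chr7:143458339-143461050 (Cdkn1c), chr4:109660876-109667189 (Cdkn2c) and chr1:134075170-134079120 (Btg2). The cells came from lobules III-IV at postnatal day 1 (P1) and were sequenced as 2 single-cell RNA libraries. The control library was made from Cxcr4+/+ mice and the mutant library from Cxcr4+/1013 mice, both labelled with the strain B6.129S2-Cxcr4tm1.1Bala. The product of the 1013 allele is a CXCR4 receptor that lacks the end of its C-terminal tail, and 1 copy was carried. The genotype label reads Cxcr4+/1013 where the protocol text reads Cxcr4+/-, and how many animals were pooled is not stated by the labels. With 1 library for each genotype, every genotype difference is one between 2 libraries, and no test was made.

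D-type cyclins bind Cdk4 or Cdk6, and the active kinases phosphorylate the retinoblastoma protein, which releases E2F factors and lets a cell pass from G1 into S phase. Cdkn2c (p18INK4c) belongs to the INK4 inhibitors and binds Cdk4 and Cdk6 themselves. Cdkn1a (p21), Cdkn1b (p27) and Cdkn1c (p57) form the Cip/Kip family, which binds cyclin and Cdk complexes. Btg2 is a member of the BTG/TOB family, is a target of p53 and is known as a mark of neurogenic divisions. In the cerebellum, Sonic hedgehog from Purkinje cells drives granule cell progenitors of the external granule layer to divide, and Ccnd1 and Ccnd2 are among its known targets there.

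Cells were assigned to states by gates on marker UMIs (unique molecular identifiers, 1 per captured transcript) that used none of these 10 genes. A cell counted as dividing when a list of 17 mitosis genes made up at least 10 of every 10000 of its UMIs, and as in S phase when a list of 20 replication genes did so and the mitosis list did not. The granule lineage was divided into dividing Atoh1+ progenitors (460 control and 545 mutant cells), S phase Atoh1+ progenitors (203 and 247), Atoh1+ cells low for both lists (50 and 59), dividing granule cells without an Atoh1 UMI (326 and 333), premigratory granule neurons with Cntn2 or Nhlh1 (248 and 317) and later granule neurons (125 and 147). Next to these stood Eomes+ unipolar brush cells (252 and 410). The GABAergic lineage gave dividing Pax2+ cells (91 and 131), Pax2+ interneurons (809 and 1101) and Purkinje cells (320 and 316). Astroglia, dividing (70 and 35) and not dividing (263 and 161), and cells of the oligodendrocyte lineage (68 and 74) completed the 13 states compared. Dividing Eomes+ cells and dividing cells of the oligodendrocyte lineage were under 30 in a library and were left out.

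In all, 3316 of 7712 retained control cells and 3901 of 7568 retained mutant cells were gated. The retained cells had a median of 11905 and 13280 UMIs, and 18 cell barcodes occurred in both libraries. Cells of both sexes were present in each library, so each library held more than 1 animal, and 48.8% of gated control and 41.4% of gated mutant cells were female. Cxcr4 itself stood at 66.8 UMIs per 1000000 (CPM) in control and 62.6 CPM in mutant dividing Atoh1+ progenitors. Tags from the 3' end do not show the truncation, so this level does not check the genotype. Levels are UMIs summed over the cells of a state and scaled to that state's total, with exact Poisson 95% intervals that cover counting error only. A 3' UMI count has no term for transcript length, but whether different genes are captured and counted equally well was not tested. Comparisons between genes, and shares among them, are therefore of UMIs counted and not of transcripts in the cell. Pairs of values give the control first and the mutant library second.

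The upstream sequence of 3 members is shown because they take 3 different courses through these lineages: Cdkn2c is high where mitosis genes are high, Cdkn1b persists past division in the granule lineage, and Btg2 is highest in non-dividing astroglia. Each is the 250 bases before the start of transcription from RefSeq on GRCm38.p6, 5′ to 3′ on the gene's strand, and 7 of the 10 genes had such an entry. In GENCODE vM21 the Cdkn2c gene begins further upstream than this RefSeq start, so its window lies inside the gene as placed above. Capitals mark matches to motifs searched on both strands, and no match overlapped another. The motif letters for E2F were TTCCCGC. Those of the CHR element, known from mitotic genes, were TTTGAA. The CCAAT box was searched as written in its name. An E box was searched as CAGCTG. Gli, the factor of hedgehog signalling, was searched as GACCACCCA.
Cdkn2c, chr4:109666757-109667006, minus strand: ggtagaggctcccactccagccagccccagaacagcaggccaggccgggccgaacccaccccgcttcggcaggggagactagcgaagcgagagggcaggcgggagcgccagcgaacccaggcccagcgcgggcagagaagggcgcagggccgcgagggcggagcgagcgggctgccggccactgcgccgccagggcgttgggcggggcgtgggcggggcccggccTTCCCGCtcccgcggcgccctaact
Cdkn1b, chr6:134920151-134920400, plus strand: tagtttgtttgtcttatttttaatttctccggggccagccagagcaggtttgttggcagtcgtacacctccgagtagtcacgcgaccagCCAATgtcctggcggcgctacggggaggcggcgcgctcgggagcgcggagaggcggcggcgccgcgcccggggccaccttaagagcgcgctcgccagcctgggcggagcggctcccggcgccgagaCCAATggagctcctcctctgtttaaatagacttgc
Btg2, chr1:134079156-134079405, minus strand: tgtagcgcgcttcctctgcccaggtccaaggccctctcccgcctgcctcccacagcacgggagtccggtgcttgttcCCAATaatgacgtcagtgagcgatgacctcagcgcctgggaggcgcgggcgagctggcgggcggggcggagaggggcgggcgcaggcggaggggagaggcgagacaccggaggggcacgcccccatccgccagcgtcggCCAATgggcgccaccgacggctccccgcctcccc
The Cdkn2c window held the E2F letters once, on the gene's own strand, with the match starting 25 bases before the start, and 3.82% of the 32851 windows of this length held that motif. Cdkn1b and Btg2 each held CCAAT letters at 2 places, a motif found in 33.8% of windows. The other start of Cdkn2c, and the windows of Cdk4, Cdk6 and Cdkn1a, held none of the motifs, and 1 of the 2 Ccnd3 starts held CCAAT. The CHR letters occurred in 16% of all windows, the E box in 13.0% and the Gli letters in 0.225%. These are matches of letters only, and 3' counts do not show which start was used.

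The D cyclins differed in the lineage where each was highest, though the granule lineage held both Ccnd1 and Ccnd2. Ccnd1 was highest in granule progenitors, Ccnd2 was highest in dividing Pax2+ cells of the GABAergic lineage, and Ccnd3 was low everywhere and highest in glia. In dividing Atoh1+ progenitors Ccnd1 stood at 809 CPM in control (interval 790.3 to 828) and 905 CPM in mutant cells (interval 888 to 922). S phase progenitors followed with 638.5 and 771 CPM, and dividing granule cells without an Atoh1 UMI with 600.3 and 639.6 CPM. Glia were next, with 317 and 466 CPM in the oligodendrocyte lineage, 284.5 and 261.5 CPM in dividing astroglia and 233 and 227 CPM in non-dividing astroglia. Neurons were low: premigratory granule neurons held 31.1 and 35.3 CPM, and Purkinje cells had the lowest level at 5.88 and 5.14 CPM. The order by Ccnd1 thus ran from granule progenitors through glia to neurons, with dividing Pax2+ cells among the low states at 19.7 and 9.32 CPM. Of its 12 steps, 7 (control) and 8 (mutant) were larger than counting error.

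**Figure D1:**
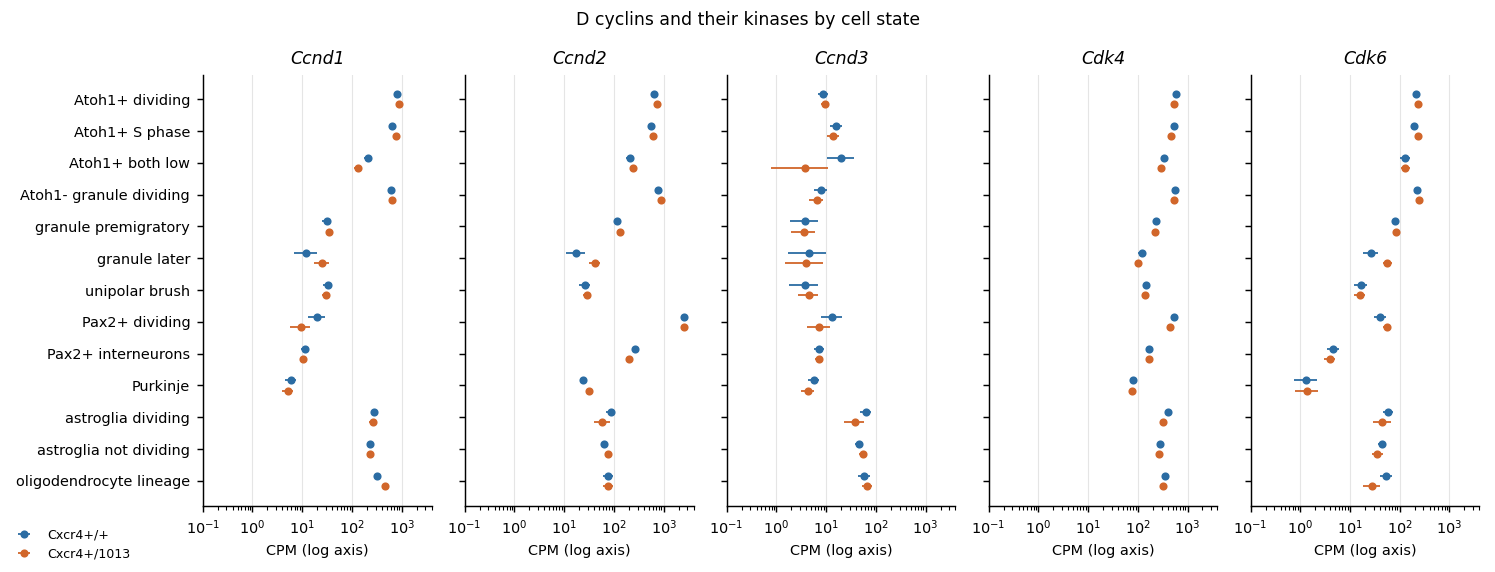
Summed UMI level in CPM (log axis) of the D cyclins and their kinases in 13 cell states (rows), 1 colour per library, with exact Poisson 95% intervals. Ccnd1 is highest in the dividing Atoh1+ row, Ccnd2 in the dividing Pax2+ row, and Cdk4 spans the narrowest range.

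Ccnd2 was highest in dividing Pax2+ cells, the precursors of GABAergic interneurons. They held 2576 CPM in control (interval 2492 to 2663) and 2522 CPM in mutant cells (interval 2454 to 2592). The granule lineage was lower, with 756 and 901 CPM in dividing cells without an Atoh1 UMI, 641.5 and 747 CPM in dividing Atoh1+ progenitors and 117.5 and 130.2 CPM in premigratory neurons. Pax2+ interneurons held 261 and 197 CPM, so that the dividing Pax2+ cells were 9.88-fold and 12.8-fold above them, where 47.4% of all genes (control) and 47.4% (mutant) were at least 1.5-fold apart.

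Within the interneurons the Ccnd2 level differed by Lhx5, a marker of early interneuron stages. Interneurons with at least 2 Lhx5 UMIs held 442 and 379 CPM, and those without an Lhx5 UMI 87.5 and 59.2 CPM. For Cdk4 the same groups had 211.5 and 209 CPM and 138 and 134 CPM. Ccnd2 UMIs sat in few of these cells, since 58.3% of control and 57.7% of mutant interneurons had none and the 10% of cells with most held 76.7% and 72.9% of the UMIs.

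Ccnd3 was at most 67.8 CPM in every compared state. Its levels were 62.3 and 37.35 CPM in dividing astroglia, 57.2 and 67.8 CPM in the oligodendrocyte lineage and 8.82 and 9.71 CPM in dividing Atoh1+ progenitors. At these levels 11 of the 12 steps in its order (control) and 10 (mutant) lay within counting error.

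The share of each cyclin among all D cyclin UMIs needs no scaling between states. Ccnd1 made up 55.4% and 54.45% of the D cyclin UMIs of dividing Atoh1+ progenitors, with Ccnd2 at 44.0% and 45.0%. Among dividing granule cells without an Atoh1 UMI Ccnd2 was the larger part, at 55.4% and 58.2%. In premigratory granule neurons Ccnd2 made up 77.1% and 77.0%. In dividing Pax2+ cells Ccnd2 was 98.7% and 99.3% of the D cyclin UMIs. Glia were on the Ccnd1 side, which was 68.1% and 63.1% in non-dividing astroglia and 70.2% and 76.4% in the oligodendrocyte lineage. Among dividing cells, Atoh1+ progenitors had 41.1 and 97.1 times the Ccnd1 level of Pax2+ cells, which rests on 27 and 19 Ccnd1 UMIs in the latter. They had 0.249 and 0.296 times the Ccnd2 level, in a comparison where 40.1% and 39.5% of all genes were at least 1.5-fold apart.

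**Figure D2:**
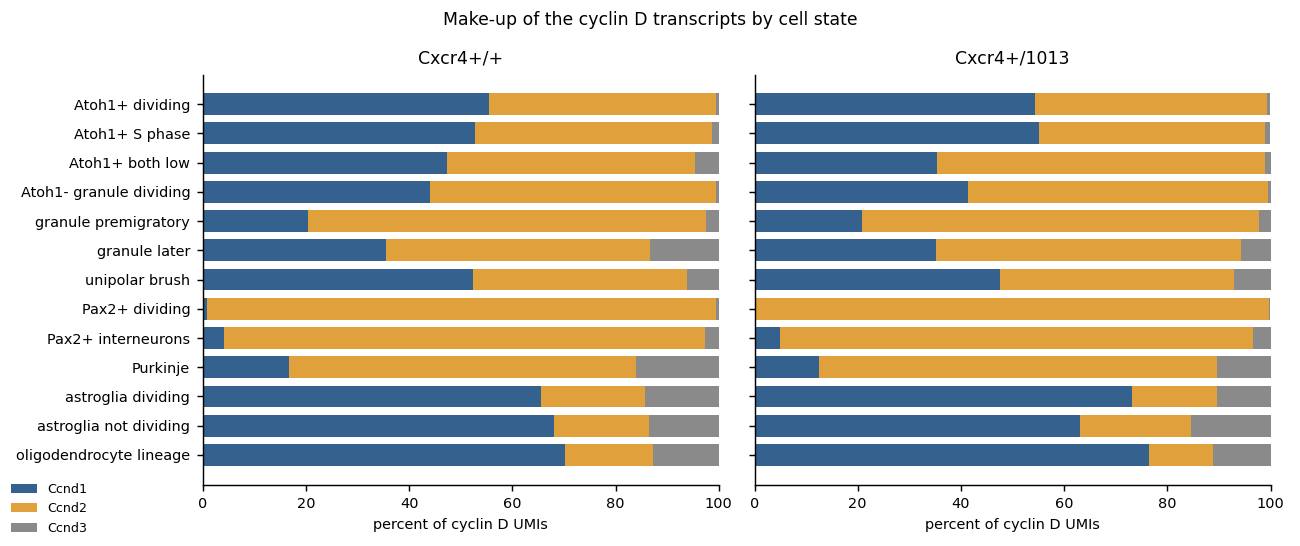
Percent of all D cyclin UMIs (x axis, 0 to 100) that were Ccnd1, Ccnd2 or Ccnd3 in each of the 13 cell states of the control and the mutant library. Ccnd2 fills almost the whole bar of the dividing Pax2+ cells, while the granule progenitor bars are divided between Ccnd1 and Ccnd2.

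Many granule progenitors carried both cyclins. After each cell was thinned to 2000 UMIs, 51.4% (interval 46.7 to 56.1) of control and 54.2% (interval 49.9 to 58.5) of mutant dividing Atoh1+ progenitors had a UMI of both Ccnd1 and Ccnd2. Ccnd1 alone was seen in 22.7% and 22.6% and Ccnd2 alone in 13.1% and 12.7%. In dividing Pax2+ cells Ccnd2 alone was seen in 84.9% and 87.8%. Any Ccnd1 UMI was present in 74.1% (69.8 to 78.0) of control and 76.8% (73.1 to 80.3) of mutant dividing Atoh1+ progenitors at this depth, with exact Clopper-Pearson intervals, and in 98.3% and 98.5% without thinning. Purkinje cells, a postmitotic type, gave 1.57% and 1.28%, which is the background for such a share. Their unthinned median depth was 35950 and 37229 UMIs, against 19253 and 20927 UMIs in the progenitors.

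Of the kinases, Cdk4 was broad. Its level was 575 and 531 CPM in dividing Atoh1+ progenitors, 543 and 454 CPM in dividing Pax2+ cells, 406 and 322 CPM in dividing astroglia and 232 and 224 CPM in premigratory granule neurons. Purkinje cells were lowest at 80.3 and 76.5 CPM. The highest state was 7.15 times the lowest in the control and 6.94 times in the mutant library, the narrowest range of the 10 genes. Cdk6, the alternative partner of the D cyclins, ranged 167-fold and 178-fold. It was 208 and 236 CPM in dividing Atoh1+ progenitors and 40.9 and 56.4 CPM in dividing Pax2+ cells. Purkinje cells had 1.32 and 1.37 CPM and Pax2+ interneurons 4.61 and 3.96 CPM. Granule neurons still had the kinase after division, with 81.9 and 84.2 CPM in the premigratory ones.

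Cdkn2c, the INK4 inhibitor of the set, was highest in the dividing cells of each lineage that had a dividing and a non-dividing state. It was 73.0 CPM in control (interval 67.5 to 78.8) and 70.8 CPM in mutant dividing Atoh1+ progenitors (interval 66.1 to 75.8). S phase progenitors held 18.1 and 25.7 CPM, a difference of 4.04-fold and 2.76-fold where 12% and 11.9% of all genes were at least 1.5-fold apart. Premigratory neurons held 2.07 and 7.015 CPM, on 6 and 27 UMIs. The granule lineage therefore carried this inhibitor mainly while mitosis genes were high. Pax2+ cells had 64.2 and 64.3 CPM when dividing and 1.81 and 1.70 CPM as interneurons. Dividing astroglia had 122 and 121 CPM, 12.1-fold and 13.0-fold above non-dividing ones, where 23.8% and 23% of all genes were past 1.5-fold. Among dividing Atoh1+ cells the Cdkn2c level was 73.4 and 71.2 CPM where S phase genes were at least 20 of 10000 UMIs and 72.2 and 70.15 CPM where they were below that. The 3 other INK4 genes are named for their role. Cdkn2a and Cdkn2b were at or under 1.005 CPM in dividing Atoh1+ progenitors and premigratory neurons, and Cdkn2d was 48.8 and 49.7 CPM in the former and 57.7 and 45.5 CPM in the latter. Cdkn2d too was lower in S phase progenitors, at 10.4 and 6.42 CPM on 30 and 25 UMIs, so the difference between dividing and S phase progenitors was not particular to Cdkn2c.

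Each Cip/Kip inhibitor took its own course. Cdkn1b was already present in dividing cells, with 130.5 and 139 CPM in dividing Atoh1+ progenitors and 158 and 181 CPM in dividing granule cells without an Atoh1 UMI. Premigratory neurons held 179 and 168 CPM and later granule neurons 104 and 118 CPM. Pax2+ cells went the other way, with 139 and 140.3 CPM when dividing and 51.5 and 52.1 CPM as interneurons. Purkinje cells had the lowest level, 15.3 and 16.4 CPM.

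Cdkn1a was low in the dividing states of the granule lineage and highest in its later neurons. It was 17.5 CPM in control (interval 14.9 to 20.5) and 18.3 CPM in mutant dividing Atoh1+ progenitors (interval 15.9 to 20.9). Dividing cells without an Atoh1 UMI held 33.4 and 35.1 CPM. Premigratory neurons held 109 and 104 CPM and later granule neurons 258 and 222 CPM. Later granule neurons were thus 14.7-fold and 12.1-fold above the dividing progenitors, a comparison in which 58.3% and 58% of all genes were past 1.5-fold. Within the dividing Atoh1+ cells Cdkn1a was 22.8 and 23.95 CPM where S phase genes were high as well and 5.21 and 8.47 CPM where they were not. Atoh1+ cells low for both lists had 96.75 and 79.3 CPM, which in the control library lay within counting error of the premigratory neurons. Pax2+ interneurons held 196 and 151 CPM without an Lhx5 UMI and 125 and 92.45 CPM with at least 2. Purkinje cells, which are postmitotic too, held 14.6 and 11.5 CPM. At 2000 UMIs 36.8% (28.35 to 45.9) of control and 31.5% (24.1 to 39.7) of mutant later granule neurons had a Cdkn1a UMI, against 2.83% and 2.875% of Purkinje cells.

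Cdkn1c was highest in differentiated neurons of several kinds. Its level was 454 and 446 CPM in Pax2+ interneurons, 298 and 304 CPM in later granule neurons, 257 and 271 CPM in unipolar brush cells and 179.6 and 202 CPM in Purkinje cells. The level was not confined to neurons, since the oligodendrocyte lineage held 173 and 148.5 CPM. In the control library that lay within counting error of Purkinje cells. Dividing Atoh1+ progenitors had 19.4 and 20.4 CPM. Of the Cip/Kip UMIs it made up 68.9% and 71.6% in Pax2+ interneurons and 85.75% and 87.9% in Purkinje cells. In dividing Atoh1+ progenitors it made up 11.6% and 11.45%, and most Cip/Kip UMIs were those of Cdkn1b, at 77.9% and 78.25%. The spread over cells differed between these neurons. In Pax2+ interneurons 44.25% of control and 43.6% of mutant cells had no Cdkn1c UMI, and the 10% of cells with most held 55.7% and 59.0% of the UMIs. In the deeper Purkinje cells 6.56% and 3.80% had none, and the 10% with most held 23.9% and 22.0%. Interneurons without an Lhx5 UMI had 575 and 532.5 CPM and those with at least 2 had 327 and 347 CPM, the reverse of the Ccnd2 pattern. Split by Slc6a5, a glycine transporter gene, the direction was the other one, with 540.2 and 493.5 CPM at 2 or more UMIs and 357 and 357 CPM at none.

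**Figure D3:**
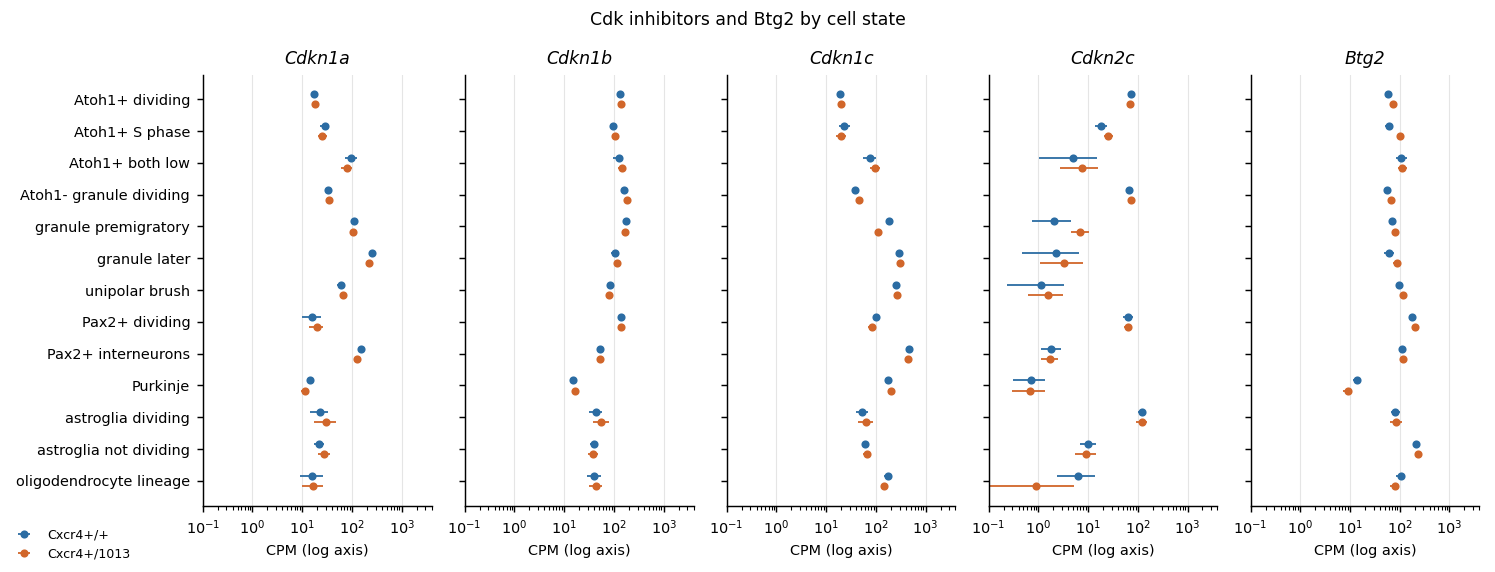
Summed UMI level in CPM (log axis) of the 4 Cdk inhibitors and Btg2 in 13 cell states (rows), 1 colour per library, with exact Poisson 95% intervals. Cdkn2c is high in the dividing rows, Cdkn1a is highest in later granule neurons and Cdkn1c in Pax2+ interneurons, and Btg2 is highest in non-dividing astroglia.

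Btg2 was highest in non-dividing astroglia, with 216 CPM in control (interval 200.1 to 233) and 236 CPM in mutant cells (interval 215 to 259). Dividing astroglia were lower, at 81.3 and 85.4 CPM. In Pax2+ cells it was the dividing ones that were higher, 175 and 207 CPM against 110.5 and 117 CPM in interneurons. Within the granule lineage the level was highest in the Atoh1+ cells low for both lists, at 107 and 113 CPM, which lay within counting error of the Pax2+ interneurons in the control library. The other granule states held 57.5 and 74.85 CPM in dividing Atoh1+ progenitors, 59.8 and 99.1 CPM in S phase progenitors, 54.9 and 66.25 CPM in dividing cells without an Atoh1 UMI, 70.8 and 80.3 CPM in premigratory neurons and 61.0 and 86.4 CPM in later neurons. Purkinje cells were lowest, at 13.7 and 9.00 CPM.

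Set against premigratory neurons of the same library, 6 of the 10 genes were at least 1.5-fold higher in dividing Atoh1+ progenitors and 2 at least 1.5-fold lower, in each library. Among all genes 52.3% (control) and 52.8% (mutant) were that far apart in either direction. The ratio was 26.0 (interval 21.1 to 32.4) and 25.6 (interval 21.6 to 30.6) for Ccnd1. It was 5.46 and 5.74 for Ccnd2 and 2.32 and 2.67 for Ccnd3. Ccnd1 and Ccnd2 stood further apart than the kinases, for which it was 2.48 and 2.37 (Cdk4) and 2.54 and 2.805 (Cdk6). Cdkn2c had ratios of 35.2 (interval 16.1 to 96.3) and 10.1 (interval 6.89 to 15.4). Cdkn1a was 6.21-fold and 5.69-fold higher in the neurons, and Cdkn1c 9.605-fold and 5.38-fold. Cdkn1b and Btg2 differed by less than 1.5-fold.

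Other genes of G1/S control, from a list of 31, mostly stood on the side of the D cyclins. Of 29 with enough UMIs, 19 were at least 1.5-fold higher in dividing Atoh1+ progenitors than in premigratory neurons in each library, 18 of them in both, beside 28.2% and 28.6% of all genes. One direction prevailed, since 1 gene (control) and none (mutant) was lower, beside 24.1% and 24.2% of all genes. Many of these genes are known to be induced in S phase and G2, stages that the gate selects through other genes. Ccna2, the cyclin of S phase and G2, was 294.5 and 269.9 CPM in progenitors and 2.76 and 1.04 CPM in neurons. Cks1b, a subunit of Cdk complexes, was 372.5 and 347 CPM in progenitors and 35.2 and 37.15 CPM in neurons. Tfdp2, a partner of E2F factors, was 236 and 246 CPM in progenitors and 99.2 and 114 CPM in neurons. Not every gene of the list differed: Ambra1, which promotes degradation of D cyclins, was 152.5 and 165 CPM in progenitors and 186 and 232 CPM in neurons. The pocket proteins, named for their role after their values were seen, stood apart from each other. Rbl1 (p107) was 64.9 and 73.3 CPM in progenitors and 6.22 and 5.72 CPM in neurons. Rb1 was 93.0 and 107.5 CPM in progenitors and 109.9 and 121 CPM in neurons. Rbl2 (p130) was 23.45 and 24.75 CPM in progenitors and 35.2 and 36.4 CPM in neurons.

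Of the 4 relatives of Btg2, 1 was higher and 2 were lower in the progenitors, too few to read against the shares over all genes in this comparison. Btg1 was 125 and 137 CPM in progenitors and 237 and 244.5 CPM in neurons. Tob1 was 38.2 and 46.0 CPM in progenitors and 88.8 and 94.8 CPM in neurons. Btg3 was higher, with 35.8 and 49.9 CPM in progenitors and 14.5 and 23.1 CPM in neurons. Of 8 genes of the p53 list with enough UMIs, 3 were higher and 2 lower in the control and 4 higher and none lower in the mutant library, so that 5 and 4 of 8 were past the fold beside 52.3% and 52.8% of all genes. Among the higher ones was Trp53 itself with 141 and 155 CPM in progenitors and 42.5 and 34.0 CPM in neurons.

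The genes whose levels over the 13 states of both libraries, 26 points that share libraries and depth, were most like those of a member are given as a description. For Cdkn2c these were Ccnb2 (0.979), Cdca3 (0.976) and Lockd (0.971), as Pearson's r of log2(CPM + 1). Ccnb2 is a mitotic cyclin. For Cdk4 they were Sem1 (0.978), Hmgn2 (0.966) and Thrap3 (0.962), and for Cdk6 Hnrnpk (0.927), Ube2d3 (0.927) and Hnrnpc (0.921). For Ccnd1 they were Ddx41 (0.957), Suclg2 (0.946) and Tnfaip8 (0.939), and for Ccnd2 Zfp664 (0.915), Syncrip (0.914) and Rprd1b (0.913). For Ccnd3 they were Gramd3 (0.958), Cpt1a (0.938) and Stx2 (0.934). For Cdkn1a they were Grin2b (0.914), Wscd2 (0.898) and Tmtc2 (0.892), of which Grin2b, a glutamate receptor subunit gene, was among the gate markers. For Cdkn1b they were Naa16 (0.95), Ubtf (0.942) and Cep78 (0.937). For Btg2 they were Gm37494 (0.918), Ier2 (0.893) and Tsix (0.881). Ier2 is an immediate early gene.

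Between the genotypes the 10 genes were within 1.5-fold in the dividing states of the granule lineage. In dividing Atoh1+ progenitors none of the 10 was that far apart, where 4.52% of all genes were. Their median log2 ratio was 0.12, beside 0.06 over all genes tested. The ratio of the mutant to the control library was 1.12 (interval 1.09 to 1.15) for Ccnd1, 1.165 (interval 1.13 to 1.20) for Ccnd2 and 1.13 (interval 1.07 to 1.20) for Cdk6. It was below 1 for Cdk4, 0.924 (interval 0.8905 to 0.959). The inhibitors had intervals that hold 1, with 1.04 (interval 0.846 to 1.29) for Cdkn1a, 1.07 (interval 0.988 to 1.15) for Cdkn1b, 1.05 (interval 0.858 to 1.28) for Cdkn1c and 0.970 (interval 0.874 to 1.08) for Cdkn2c. Ccnd3 had 1.10 (interval 0.819 to 1.49) and Btg2 1.30 (interval 1.17 to 1.45). S phase progenitors had like ratios for the kinases and cyclins, 1.21 (interval 1.14 to 1.28) for Ccnd1, 1.10 (interval 1.03 to 1.17) for Ccnd2, 0.867 (interval 0.810 to 0.928) for Cdk4 and 1.20 (interval 1.08 to 1.33) for Cdk6. There Btg2 was past the fold, with 1.66 (interval 1.38 to 1.995), and Cdkn2c had 1.42 (interval 1.01 to 2.03), while the intervals of Ccnd3 and the 3 Cip/Kip genes held 1. In dividing granule cells without an Atoh1 UMI they were 1.065 (interval 1.02 to 1.12) for Ccnd1, 1.19 (interval 1.14 to 1.24) for Ccnd2, 0.916 (interval 0.872 to 0.962) for Cdk4 and 1.11 (interval 1.03 to 1.20) for Cdk6, beside a background of 5.94%. Cdk4 was thus the 1 gene of the cyclins and kinases below 1 in all of these dividing and S phase granule states. With TMM scaling the ratios are 1.04-fold lower in each of these states. A lower limit under 1.04, such as that of Ccnd1 in dividing cells without an Atoh1 UMI, would then not lie above 1.

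Over all 13 states, 9 of 114 gene and state pairs with at least 50 UMIs were 1.5-fold apart (7.89%), 4 higher and 5 lower in the mutant library. Over all genes the share was 7.09% of 119731 such pairs, so the share among the members is near the background. Of all pairs past the fold 65.3% were higher in the mutant library, or 55.9% with TMM scaling. No pair was past the fold in unipolar brush cells (background 5.19%), in dividing Pax2+ cells (9.02%), in Pax2+ interneurons (4.04%) or in non-dividing astroglia (8.05%).

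**Figure D4:**
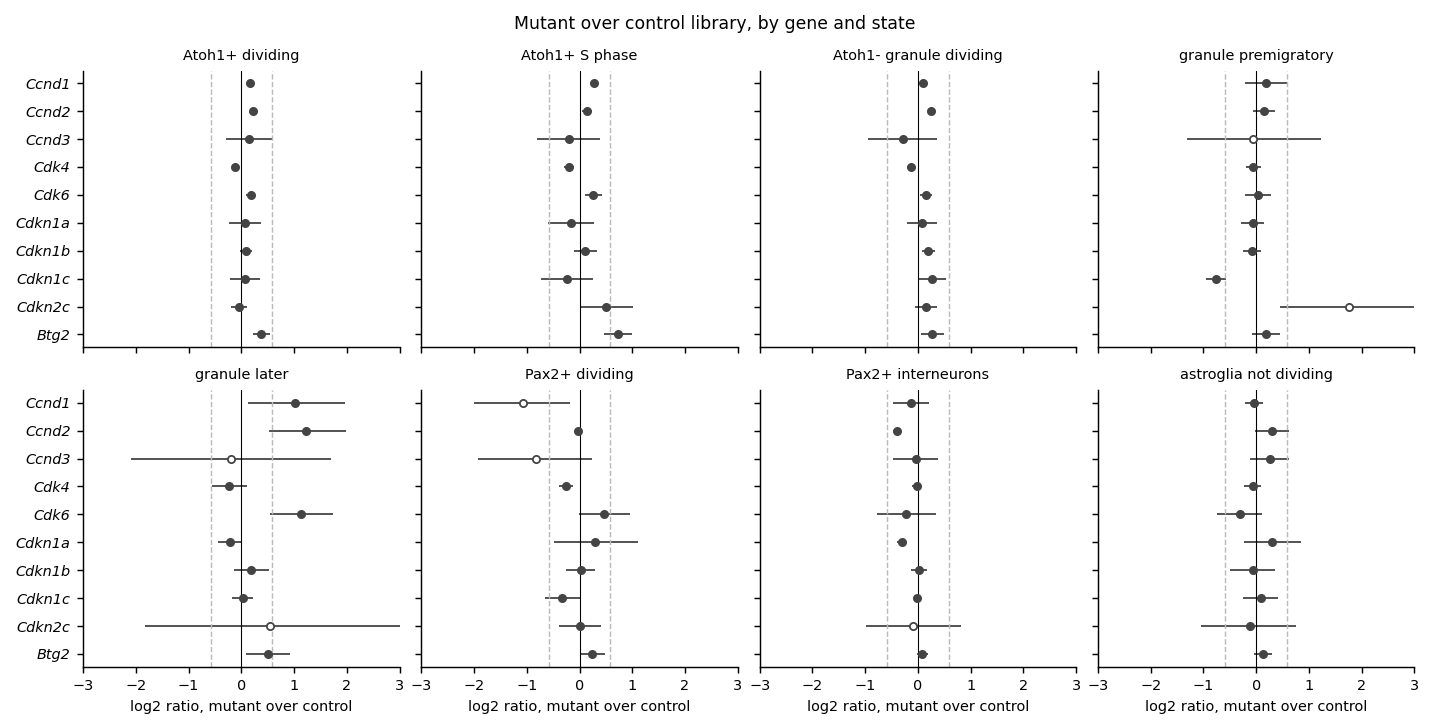
Log2 ratio of the mutant over the control library for the 10 genes in 8 of the 13 states, with exact conditional 95% intervals, open points where fewer than 50 UMIs were counted, and dashed lines at 1.5-fold. In dividing Atoh1+ progenitors all points lie between the dashed lines, and wider departures appear in later granule neurons.

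Of the 9 pairs, 3 were in later granule neurons, each at a low level, where 7.53% of all genes were past the fold. Ccnd1 was 12.2 and 24.6 CPM (ratio 2.02, interval 1.09 to 3.88, 16 and 37 UMIs). Ccnd2 was 17.5 and 41.2 CPM (ratio 2.35, interval 1.435 to 3.975, 23 and 62 UMIs). Cdk6 was 25.9 and 56.5 CPM (ratio 2.18, interval 1.45 to 3.35, 34 and 85 UMIs). Few cells carried much of the cyclins: 5 mutant cells held 50% of the mutant Ccnd2 UMIs and 5 held 45.95% of the Ccnd1 UMIs, beside 47.8% and 50% in the control library. As a mean of per-cell CPM the Ccnd2 ratio was 1.79. Cdk6 was short of the fold among females, at 1.365 (interval 0.758 to 2.49), and had 2.71 (interval 1.37 to 5.85) among males. All 3 are genes that were higher in progenitors than in neurons. The summed level of the 17 mitosis genes was 57.2 and 89.7 CPM in these cells and that of the 20 S phase genes 228 and 202 CPM, whose part in the result was not tested.

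In premigratory neurons Cdkn1c was 187 and 109.6 CPM (ratio 0.588, interval 0.516 to 0.669), in a state where 6.37% of genes were past the fold. Few cells carried much of it: 1 control cell held 17.0% of the control UMIs and 5 cells held 37.8%, against 7.35% and 21.6% in the mutant library. With gates that asked for more marker UMIs the ratio was 0.878, short of the fold, and in 7 of 8 alternative settings it was past the fold. Among females it was 0.504 (interval 0.413 to 0.612) and among males 0.633 (interval 0.516 to 0.7775). At 2000 UMIs the share of these neurons with a Cdkn1c UMI was 19.35% (14.6 to 24.8) among control and 16.7% (12.8 to 21.3) among mutant cells, so the intervals overlapped.

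The remaining 5 pairs were spread over 5 states. Ccnd1 was 207 and 134 CPM in the Atoh1+ cells low for both lists (ratio 0.646, interval 0.494 to 0.844, background 17.3%), and with the stricter gates the ratio was 1.04. It was 0.199 (interval 0.0955 to 0.376) among females, on 11 UMIs in 19 mutant cells, and 0.972 (interval 0.660 to 1.45) among males, so the pair was past the fold among females and not among males, a difference that was not tested. In this state the 5 unipolar brush cell markers summed to 79.8 and 197 CPM and the 11 astroglia markers to 263 and 144 CPM, whose part in the result was not tested. Btg2 was 59.8 and 99.1 CPM in S phase Atoh1+ progenitors (ratio 1.66, interval 1.38 to 1.995, background 6.2%). In glia, Ccnd3 was 62.3 and 37.35 CPM in dividing astroglia (ratio 0.599, interval 0.349 to 0.989, background 11.6%). Cdk6 was 53 and 27.5 CPM in the oligodendrocyte lineage (ratio 0.519, interval 0.3185 to 0.832, background 11.8%). There the 6 premigratory granule neuron markers summed to 567 and 343 CPM, the 10 granule progenitor markers to 132.5 and 102 CPM and the 5 markers of nuclear or midbrain glutamatergic neurons to 113 and 43.1 CPM, beside 3767 and 4906 CPM for the 7 oligodendrocyte lineage markers. Their part in the Cdk6 value was not tested. The last pair was Btg2 in Purkinje cells, where it has its lowest level, at 13.7 and 9.00 CPM (ratio 0.657, interval 0.508 to 0.847, background 5.14%). The ratio was 0.9355 (interval 0.636 to 1.37) among females, short of the fold, and 0.506 (interval 0.332 to 0.761) among males. In all Purkinje cells 15 immediate early and dissociation genes summed to 587 and 427 CPM, and 5 of 13 with enough UMIs were lower by the same fold, whose part in the Btg2 value was not tested.

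Female and male cells come from different animals, so levels within 1 library give a scale for differences between animals of the same genotype. Btg2 in dividing Atoh1+ progenitors was 74.0 CPM in control females, 40.2 CPM in control males, 71.3 CPM in mutant females and 78.2 CPM in mutant males. The control males were the low group, and the other 3 lay close together. The mutant to control ratio was accordingly 0.963 (0.820 to 1.13) among females and 1.95 (1.61 to 2.36) among males. In S phase progenitors Btg2 was 76.1 CPM in control females, 46.4 CPM in control males, 82.5 CPM in mutant females and 111.5 CPM in mutant males, with ratios of 1.08 (0.819 to 1.44) and 2.40 (1.79 to 3.27). Here too the control males were lowest, and the mutant males were highest. Within the control library the male to female ratio of Btg2 in dividing Atoh1+ progenitors was 0.543 (0.442 to 0.664). The immediate early and dissociation list, to which Btg2 does not belong, summed to 561 CPM in control females, 353 CPM in control males, 403 CPM in mutant females and 394 CPM in mutant males in this state, and its part in the Btg2 values was not tested.

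Ccnd1 in dividing Atoh1+ progenitors was 774 CPM in control females, 849 CPM in control males, 984 CPM in mutant females and 847 CPM in mutant males. Mutant females were the high group, and the ratio was 1.27 (1.21 to 1.33) among females and 0.998 (0.954 to 1.04) among males. Ccnd2 was higher in the mutant cells of both sexes, 635 CPM in control females, 624 CPM in control males, 712 CPM in mutant females and 797 CPM in mutant males. Between 0 and 5 of the 10 genes had a male to female interval off 1 within a library, depending on the state, so some members differed within a genotype by more than counting error. No minimum of UMIs was asked for this count. No share over all genes is given for it, so it has no background beside it and is not a result particular to the members. Sex and animal cannot be told apart in these values.

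**Figure D5:**
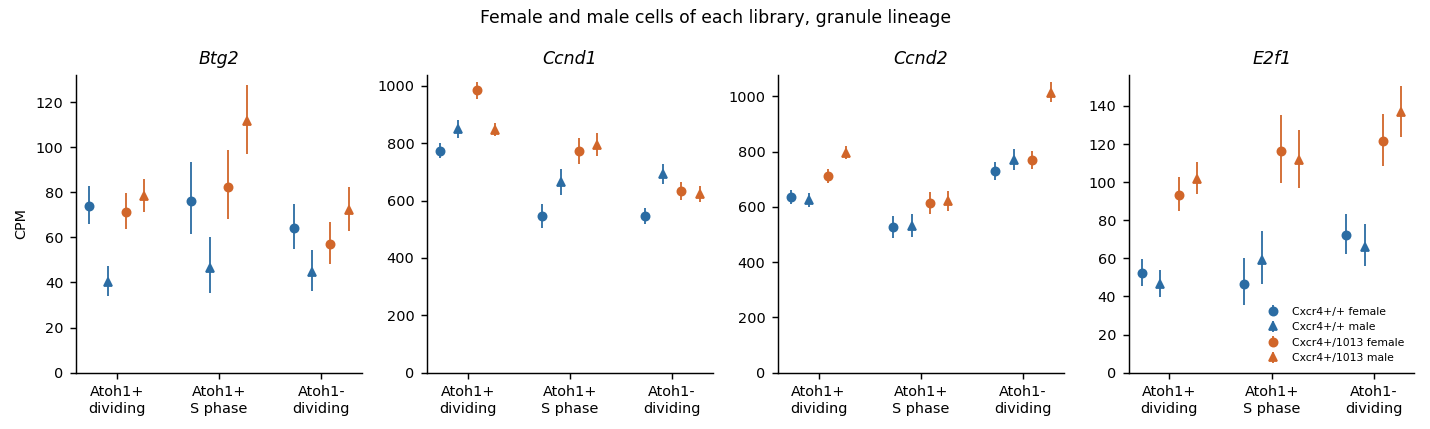
Level in CPM of Btg2, Ccnd1, Ccnd2 and E2f1 in female (circles) and male (triangles) cells of the control and the mutant library, in dividing or S phase states of the granule lineage, with exact Poisson 95% intervals. For Btg2 the control males lie lowest, and for E2f1 both mutant groups lie above both control groups.

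Among the surrounding G1/S genes, E2f1, a transcription factor released when cyclin D kinases act on the retinoblastoma protein, was past the fold in the most states. It was 50.1 CPM in control (449 UMIs) and 96.7 CPM in mutant dividing Atoh1+ progenitors (1125 UMIs), a ratio of 1.93 (interval 1.73 to 2.16). The ratio was 2.15 (interval 1.79 to 2.595) in S phase progenitors, 1.84 (interval 1.63 to 2.08) in dividing granule cells without an Atoh1 UMI and 2.955 (interval 2.10 to 4.23) in premigratory neurons. Beyond the granule lineage it was 1.97 (interval 1.46 to 2.69) in dividing Pax2+ cells. In 7 of the 9 states with at least 50 E2f1 UMIs it was at least 1.5-fold higher in the mutant library, and 6 states had an interval above 1. Both sexes showed it in dividing Atoh1+ progenitors, where E2f1 was 52.4 CPM in control females, 46.3 CPM in control males, 93.4 CPM in mutant females and 102 CPM in mutant males. With fewer than 50 UMIs the ratio was 1.14 in later granule neurons, 1.05 in Purkinje cells and 0.876 in Atoh1+ cells low for both lists. It was 2.81 in the oligodendrocyte lineage, and all of these intervals held 1. How many of all genes were past the fold in as many states is not given.

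Over the whole G1/S list 23 of 287 gene and state pairs were past the fold (8.01%), near the 7.09% over all genes. Of these pairs 18 were higher and 5 lower in the mutant library, and 7 of the higher ones were E2f1. In dividing Atoh1+ progenitors E2f1 was the 1 gene of 29 past it, and the list's median log2 ratio was 0.05 where that of all genes was 0.06. In S phase progenitors E2f8, a repressor of E2F targets, had a ratio of 1.655 (interval 1.05 to 2.66) and Cdkn2d one of 0.615 (interval 0.347 to 1.08). In premigratory neurons E2f5 had 1.504 (interval 1.01 to 2.28) and E2f6 1.63 (interval 0.986 to 2.76), and in later granule neurons Cdk7, the Cdk-activating kinase, had 1.575 (interval 1.13 to 2.22). None of the 8 p53 pathway genes and none of the 4 relatives of Btg2 were past the fold in dividing Atoh1+ progenitors, and Btg3 had a ratio of 1.59 (interval 1.09 to 2.36) in premigratory neurons.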

How the data were processed

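Each deposited matrix held counts of UMIs per gene and barcode without normalisation, made by the authors with bcl2fastq 2.20.0.4222 and Cell Ranger 7.2 on mm10, per the submitters' processing notes, from 10X Genomics 3' v3.1 libraries, per the labels. The annotation, and any use of introns or strand in counting, are not given in the sources used here, and 7 of the 10 genes overlap an annotated gene on the other strand (GENCODE vM21).

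The control library held 9586 barcodes and 120003656 UMIs, the mutant library 9551 and 130429500. The filter asked for 500 genes and no more than 10% mitochondrial UMIs, which 8353 and 8194 barcodes passed. The highest Scrublet scores (scanpy 1.11.5), 641 and 626 barcodes, were removed as doublets. UMIs were summed per state and scaled to CPM. Genes with at least 50 UMIs over both sides were called by size at 1.5-fold, and 3 counts stood in for a count of 0. Levels and ratios carry exact Poisson and conditional binomial 95% intervals. Alternatives were other filters, gates, single sexes, depths, folds, and edgeR's TMM and DESeq2 scaling. The 1.5-fold rule and the ratio intervals were tested on sums simulated for dividing Atoh1+ progenitors, with counting error only. There 1.27% of unchanged genes were called. The gates, doublet removal, thinning and sex calls were not tested in this way.

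The members, lists and gate thresholds were chosen with earlier results of these data known. All 10 members are named. Some gated cells and one member's most alike genes are not reported here. Other genes come from lists, where they were past the fold between libraries or had most UMIs in granule progenitors, unless said otherwise.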

Additional observations from a re-analysis of the deposited data

Results flagged for a closer look

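In 4 of the 130 gene and state pairs the counting interval of the mutant to control ratio lay above 1 in one sex and below 1 in the other. The difference between the sexes was not tested. No share over all genes is given for this count, so it has no background beside it. Ccnd1 in dividing granule cells without an Atoh1 UMI had a ratio of 1.16 among female and 0.901 among male cells. Ccnd2 in Atoh1+ cells low for both lists had ratios of 0.631 and 1.86. Cdkn1c had ratios of 0.638 and 1.55 in later granule neurons, and of 0.884 and 1.14 in Pax2+ interneurons.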

How the results depend on the processing

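No paired analysis was possible because there was 1 library per genotype. With gates that asked for 1 more UMI of each marker sum, the Ccnd1 ratio in Atoh1+ cells low for both lists turned from 0.646 to 1.04, and no other called ratio changed direction under the alternatives run. The 9 member and state pairs past 1.5-fold became 15 with at least 1000 genes and at most 5% mitochondrial UMIs. They were 15 in female cells, 29 in male cells and 10 or 11 in the other settings. The single-sex counts cover the same 114 pairs, chosen for at least 50 UMIs in all cells. That minimum was not asked again within a sex, so pairs with fewer UMIs are included. No share over all genes is given for that filter or for the single sexes, so these counts have no background beside them. The cause of the changes was not tested, though the single sexes hold fewer cells. The share of dividing Atoh1+ progenitors with a Ccnd1 UMI was 86.9% (control) and 88.0% (mutant) at 4000 UMIs. Over all genes the 8483 pairs past the fold became 84200 without the minimum of 50 UMIs and 1333 at 2-fold, and the 23 pairs of the G1/S list became 2 at 2-fold. The part of these pairs that was higher went from 65.3% to 55.9% with TMM and 55.8% with DESeq2 scaling. The counts of 6 members higher and 2 lower in progenitors than in premigratory neurons were the same in every alternative run on them.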
